A study of Homo sapiens with 18 samples.

Results

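Of the 57736 gene rows in the count table, 10 encode chaperones and proteases of mitochondria, and all 10 were among the 17317 genes with enough reads to be tested. They were chosen by name, as the rows whose Ensembl identifier carries 1 of 10 symbols. HSPA9, HSPD1, HSPE1, TRAP1 and DNAJA3 encode chaperones and co-chaperones, and LONP1, CLPP, CLPX, YME1L1 and AFG3L2 encode proteases or their unfolding subunits. Their mRNA was followed in A1847 cells, a human high-grade serous ovarian cancer line. The cells were labelled wild type for CARM1 and XBP1 (WT), knocked out for CARM1 (koCARM1) or knocked down for XBP1 (shXBP1), and each kind was kept under control conditions (ctr) or treated with tunicamycin (TM). The study's methods give the control as vehicle and the treatment as 5 μg/ml tunicamycin for 8 h. Each of the 6 groups had 3 libraries, so that there were 18 in all. CARM1 is an arginine methyltransferase, and XBP1 encodes a transcription factor of the unfolded protein response of the endoplasmic reticulum (ER). The knockout was made with a lentiviral CRISPR vector and the knockdown with an shRNA, and the sources used here state neither whether the knockout cells descend from a single clone nor whether the WT cells carried a control vector. The same WT libraries served both genotype comparisons. Nothing in the labels says that replicates came from separate cultures, so the p-values measure the spread between these libraries, which may be technical.

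Most mitochondrial proteins are made in the cytosol, threaded unfolded through the translocases of the outer and inner membranes, and folded inside. HSPA9 (mortalin), the HSP70 of the matrix, pulls incoming chains through the inner membrane and hands some of them to the HSP60 chamber built from HSPD1 and closed by its lid, HSP10, from HSPE1. LONP1 and the CLPX-CLPP complex degrade damaged matrix proteins, and YME1L1 and AFG3L2 form ATP-driven proteases on either face of the inner membrane. Tunicamycin acts in another compartment: it blocks N-linked glycosylation in the ER, where misfolded proteins then build up.

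HSPD1 and HSPE1 lie head to head on chromosome 2, and stretches of their shared upstream region are shown because the mRNAs of these partners took different courses under tunicamycin. HSPD1 (ENSG00000144381) is annotated on GRCh37 from 198351308 to 198381461 on the minus strand and HSPE1 (ENSG00000115541) from 198364864 to 198368173 on the plus strand. RefSeq gives HSPD1 start sites at 198364564 and 198364998, which lie 539 and 105 bases from the RefSeq HSPE1 start at 198365103. The annotated HSPE1 start at 198364864 lies between these HSPD1 start sites. The 250 bases before each RefSeq start of the members (table on GRCh38.p14) were matched letter for letter to GRCh37, and 10 windows were found for 8 members. CLPP and YME1L1 had no entry. Transcripts of both genes have untranslated exons in the HSPD1 and HSPE1 windows, so 30 bases of each are given, with capitals marking overlapping matches to the heat shock element GAANNTTCNNGAA (searched on both strands).
HSPD1, chr2:198364785-198364814, minus strand: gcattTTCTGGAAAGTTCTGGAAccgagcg
HSPE1, chr2:198365073-198365102, plus strand: gattttttcacgtgtcgccagggccggact
The heat shock element was held by 0.441% of the 35116 promoter windows in the table and by 1 of the 10 member windows, that of HSPD1, where its matches lay 228 to 245 bases before the start at 198364564. The matched stretch also lies on the upstream side of the annotated HSPE1 start at 198364864. It falls outside the HSPE1 window because that window begins at 198364853, so the count does not assign the element to HSPD1 alone. ACGTCA, the core of the site that XBP1s (the spliced, active form of XBP1) binds, was held by 7.10% of all windows and by 2 member windows, those of TRAP1 and AFG3L2. In the following runs capitals mark that core and its reverse complement, which overlap in TRAP1. A run from before the RefSeq start of HSPA9, which held none of the words searched, is set beside them. HSPA9 was chosen because it was among the genes that rose most.
TRAP1, chr16:3767526-3767775, minus strand: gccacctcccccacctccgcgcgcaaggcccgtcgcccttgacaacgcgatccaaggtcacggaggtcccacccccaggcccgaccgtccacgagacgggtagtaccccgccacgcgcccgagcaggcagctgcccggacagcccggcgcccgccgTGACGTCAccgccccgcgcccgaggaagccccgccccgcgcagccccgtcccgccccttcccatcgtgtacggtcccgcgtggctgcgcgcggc
AFG3L2, chr18:12377227-12377476, minus strand: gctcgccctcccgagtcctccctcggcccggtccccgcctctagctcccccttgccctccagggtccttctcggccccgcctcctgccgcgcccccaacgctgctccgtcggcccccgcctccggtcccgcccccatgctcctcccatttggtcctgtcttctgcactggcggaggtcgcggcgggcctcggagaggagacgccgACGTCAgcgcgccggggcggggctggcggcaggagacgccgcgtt
HSPA9, chr5:137911121-137911340, minus strand: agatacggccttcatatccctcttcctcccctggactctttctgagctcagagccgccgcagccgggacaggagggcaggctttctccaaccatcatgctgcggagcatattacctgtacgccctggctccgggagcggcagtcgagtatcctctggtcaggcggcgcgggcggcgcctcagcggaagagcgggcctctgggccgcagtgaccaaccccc
The HSPA9 run leaves out bases of the window that are annotated as untranslated. It lies upstream of the RefSeq start at 137911090 and inside the gene as annotated on GRCh37, which runs to 137911364 on the minus strand. None of the 10 member windows held the ER stress response element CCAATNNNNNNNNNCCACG (0.0740% of all windows), the unfolded protein response core TGACGTGG (0.612%) or the word TGATGNAA of composite C/EBP-ATF sites (3.14%). A match is a word in a window and not a binding site, and its absence says only that these letters are not there.

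The libraries held 9367462 to 13917212 counts, and the members had between 395 counts (CLPX) and 17161 counts (HSPD1) in a library. Levels are given as CPM, library totals being brought to a common size with TMM factors. Reads came from the 3′ ends of the mRNA, so a count does not grow with transcript length, but levels are compared here within a gene only. Differences were tested with edgeR's quasi-likelihood test across all 17317 genes, and a gene was called at a Benjamini-Hochberg adjusted p under 0.05. CARM1 and XBP1 mRNA were lower in the cells modified for them, with log2 fold changes from WT under vehicle of −1.17 for CARM1 in koCARM1 and −0.86 for XBP1 in shXBP1. Each also differed in the other modified cells. XBP1 was called lower in koCARM1 under vehicle (−0.475) and not under tunicamycin (−0.06), and CARM1 was called higher in shXBP1 under vehicle (0.22) and tunicamycin (0.366). The koCARM1 libraries stood apart from the other 12: across genes their log2 CPM correlated with those of the others at r = 0.73 to 0.775, against 0.961 to 0.987 between WT and shXBP1. Of 7 epithelial and ovarian cancer markers (KRT8, KRT18, EPCAM, CDH1, PAX8, WT1 and MUC16), 6 could be tested. All 6 were higher in koCARM1 under vehicle, where 37.5% of all genes were, and 5 under tunicamycin, where 38.4% were and CDH1 was not called. Their summed level was 309.6 to 331.3 CPM in WT and 2272 to 2340 CPM in koCARM1 with vehicle, and 459.9 to 485.2 against 1881 to 1987 CPM with tunicamycin. The defining markers MUC16 (0 in every library), PAX8 and WT1 (at most 0.166 CPM) were absent or nearly so in WT cells, and PAX8 stood at 39.9 to 65.3 CPM in koCARM1. All 3 mesenchymal markers tested (VIM, CDH2 and FN1) were also higher there, at a summed 3776 to 4097 CPM against 444.8 to 537.8 in WT. In shXBP1, 2 of the 6 epithelial and ovarian cancer markers were called lower than in WT with either treatment (3.03% of all genes with vehicle, 8.55% with tunicamycin). The 7 markers summed to 130.4 to 143.5 CPM there with vehicle and 198.4 to 213.8 CPM with tunicamycin. Of the 3 mesenchymal markers 1 was called higher in shXBP1 with either treatment (2.07% and 6.99% of all genes). Leukocyte markers (PTPRC, CD3E and CD14) summed to at most 0.842 CPM and the endothelial markers VWF and CDH5 to at most 0.318 CPM in any library. An effect of losing CARM1 and other differences between these cell populations cannot be told apart in the comparisons of koCARM1 with WT. In bulk RNA, a change in the mix of cells and a change in the RNA per cell cannot be told apart either.

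In WT cells, tunicamycin raised HSPA9, LONP1, YME1L1 and DNAJA3 by 1.71- to 2.58-fold and lowered HSPE1 to 0.443 of its vehicle level, while HSPD1 and AFG3L2 did not pass the test. Of the 10 members 7 were higher, where 22.0% of all genes tested were higher, and 1 was lower, where 19.9% of all genes were. The median log2 fold change of the members was 0.24, beside 0 over all genes. Without replicate 3 of the tunicamycin group the calls numbered 5, because those of CLPP, CLPX and TRAP1 were lost. The CLPX call was lost in 6 of the 6 fits that each left out 1 library, that of CLPP in 4 and that of TRAP1 in 1.
HSPA9 (ENSG00000113013, chromosome 5 of GRCh37 from 137889445 to 137911364) was at 255, 277 and 257 CPM in the WT libraries with vehicle and at 546, 511 and 518 CPM with tunicamycin. Every treated library lay far above every untreated one, and the log2 fold change was 1.01 (SE 0.0537, edgeR adjusted p = 2.49e-10). DNAJA3, a J-domain protein that stimulates the ATPase of HSPA9 (ENSG00000103423, chromosome 16 from 4475806 to 4506776), was at 68.2, 67.5 and 69.8 CPM with vehicle and at 121, 109 and 118 CPM with tunicamycin. Its log2 fold change was 0.77 (SE 0.0622, edgeR adjusted p = 3.8e-08). TRAP1, the HSP90 of mitochondria (ENSG00000126602, chromosome 16 from 3701640 to 3767554), rose less, from 111.8 ± 5.76 to 132.8 ± 9.82 CPM (SD, n = 3 each), which was 0.26 on the log2 scale (SE 0.0667, edgeR adjusted p = 0.0047).
The chamber and its lid behaved differently. HSPD1 was at 1211, 1221 and 1051 CPM with vehicle and at 1223, 1205 and 1176 CPM with tunicamycin. The groups overlapped, and the log2 fold change of 0.06 (SE 0.0568) did not pass the test (edgeR adjusted p = 0.436). HSPE1 was at 719, 715 and 790.4 CPM with vehicle and at 340.4, 309 and 327 CPM with tunicamycin. No treated library reached the lowest untreated one, and the log2 fold change was −1.18 (SE 0.0571, edgeR adjusted p = 7.97e-11). HSPE1 was the only member that fell in WT cells.
LONP1, the ATP-dependent protease of the matrix (ENSG00000196365, chromosome 19 from 5691845 to 5720583), had the largest rise of the 10 in WT cells. Its level was 71.9, 79.1 and 78.8 CPM with vehicle and 184, 193 and 211 CPM with tunicamycin, a log2 fold change of 1.37 (SE 0.0664, edgeR adjusted p = 8.08e-11). YME1L1, the i-AAA protease that faces the intermembrane space (ENSG00000136758, chromosome 10 from 27399040 to 27444195), rose from 71.4, 78.1 and 76.1 CPM to 143, 136 and 140.2 CPM. Its log2 fold change was 0.91 (SE 0.0597, edgeR adjusted p = 3.6e-09), and the groups were again far apart. The matrix-facing AFG3L2 (ENSG00000141385, chromosome 18 from 12328943 to 12377226) was at 137.2 ± 4.23 CPM with vehicle and at 141 ± 9.37 CPM with tunicamycin (SD, n = 3 each) and did not pass the test (log2 fold change 0.05, edgeR adjusted p = 0.549).
CLPX, the unfolding ring (ENSG00000166855, chromosome 15 from 65440557 to 65477680), and CLPP, the peptidase chamber it feeds (ENSG00000125656, chromosome 19 from 6361542 to 6370253), changed little. CLPX went from 45.6 ± 1.92 to 51.6 ± 1.35 CPM and CLPP from 72.3 ± 6.41 to 83.0 ± 6.27 CPM (SD, n = 3 each). The log2 fold changes of 0.19 and 0.21 lay just inside the threshold (edgeR adjusted p = 0.0395 and 0.0389), and the CLPP groups overlapped. Both calls were lost with DESeq2 (adjusted p = 0.102 for CLPX and 0.0541 for CLPP).

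**Figure D1:**
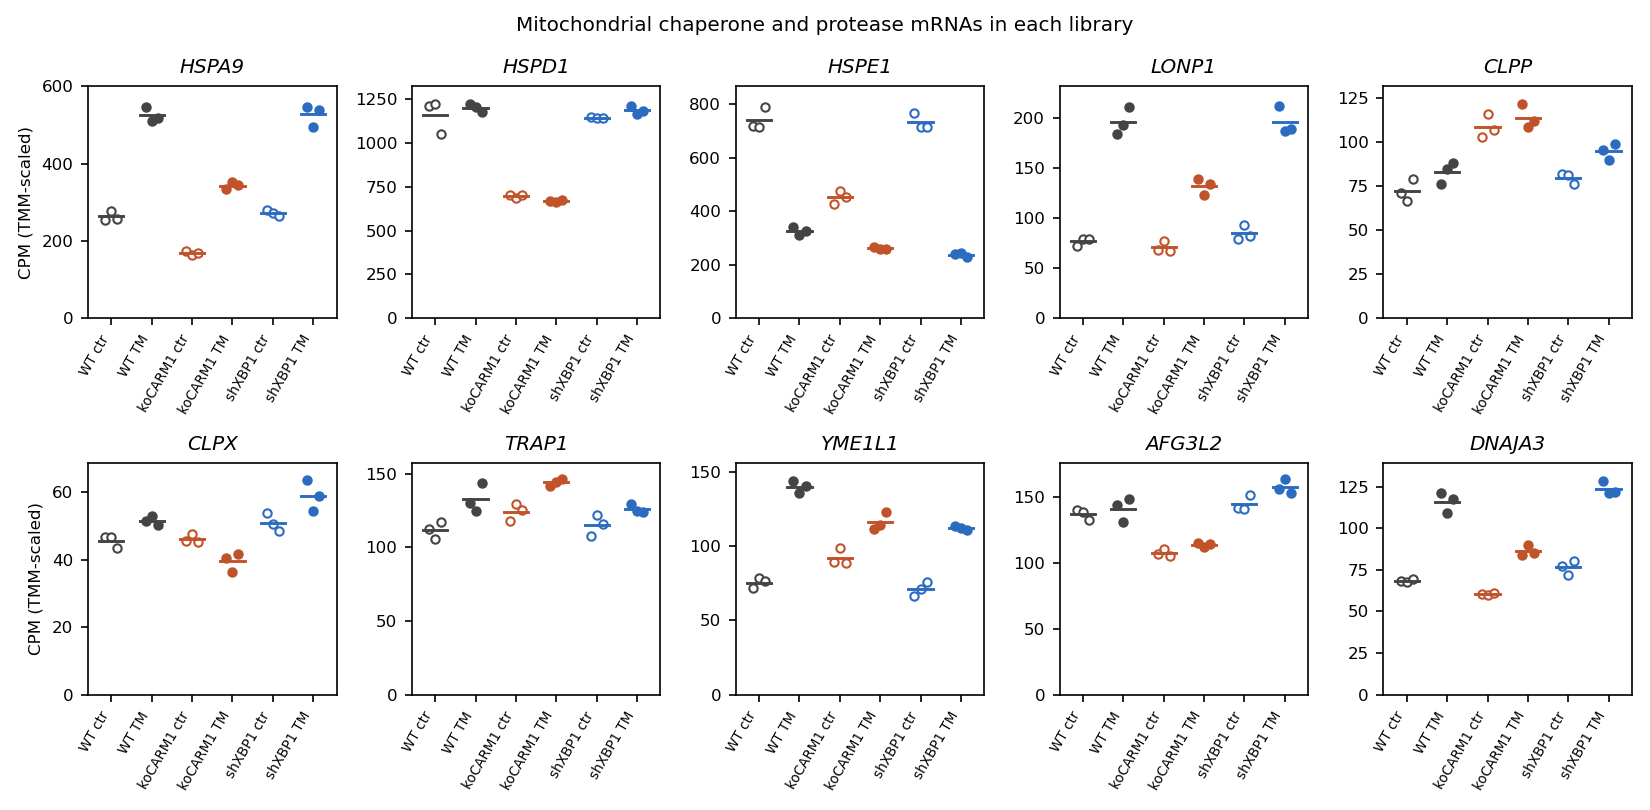
Each panel plots 1 gene, with CPM scaled by TMM factors on a linear axis from 0 and the 6 groups along the horizontal axis (open points vehicle, filled points tunicamycin, 3 libraries each, bar = mean). HSPA9, LONP1, YME1L1 and DNAJA3 are higher with tunicamycin in each genotype, HSPE1 is lower in each, and HSPD1 is lower in koCARM1 than in the other genotypes with either treatment.

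The rises of HSPA9, LONP1, YME1L1 and DNAJA3 and the fall of HSPE1 were also called in koCARM1 and in shXBP1 cells, with sizes that varied by genotype. In koCARM1 cells 6 members were higher with tunicamycin, where 20.6% of all genes were, and 2 were lower, where 18.8% of all genes were. In shXBP1 cells 6 were higher, where 19.2% of all genes were, and 1 was lower, where 19.0% of all genes were. The member medians were 0.18 and 0.22, beside 0 over all genes in both. The tests of differences between responses, given next, share the WT libraries between both genotypes.
HSPA9 rose from 172, 163 and 168 CPM to 334, 351 and 345 CPM in koCARM1, and from 279, 272 and 264 CPM to 548, 495 and 539 CPM in shXBP1. The log2 fold changes of 1.07 (SE 0.0381) and 0.95 (SE 0.0475) stood close to the 1.01 of WT cells, and neither difference in response was called (koCARM1 minus WT 0.04 with SE 0.0643, shXBP1 minus WT −0.05 with SE 0.0705). HSPA9 started from a lower level in koCARM1, and its libraries with tunicamycin there lay above those with vehicle as in the other genotypes.
Other responses were smaller in koCARM1 cells. YME1L1 rose there from 88.9, 98.5 and 88.5 CPM to 111, 114 and 123 CPM, a log2 fold change of 0.37 (SE 0.0512), and its response was 0.56 lower on the log2 scale than in WT cells, a difference of −0.56 (SE 0.0804, edgeR adjusted p = 3.21e-05). LONP1 rose from 67.8, 77.0 and 66.9 CPM to 138, 123 and 134 CPM, a log2 fold change of 0.93 (SE 0.0562), with a difference in response of −0.45 (SE 0.0941, edgeR adjusted p = 0.00131). CLPX was at 45.7, 47.5 and 45.2 CPM with vehicle and at 40.5, 36.4 and 41.6 CPM with tunicamycin, so that it was lower after treatment here (log2 fold change −0.19, SE 0.0683, lost with DESeq2 at an adjusted p of 0.0751) and higher in WT cells. The CLPX difference in response was −0.40 (SE 0.0937, edgeR adjusted p = 0.00361). DNAJA3 rose from 60.4, 59.7 and 61.4 CPM to 84.1, 90.3 and 85.2 CPM, with a difference in response of −0.24 (SE 0.0775, edgeR adjusted p = 0.03) that was lost with DESeq2 (adjusted p = 0.0659) and in 9 of the 12 fits that each left out 1 library. In all, 4 members responded less in koCARM1 than in WT cells, where 12.4% of all genes had a lower response, and 1 had a higher response, where 10.5% of all genes did.
That 1 was HSPE1, whose fall was smaller in koCARM1 cells. It went from 426, 473 and 454 CPM to 265, 258 and 257 CPM, a log2 fold change of −0.76 (SE 0.0386), and the difference in response was 0.40 (SE 0.071, edgeR adjusted p = 0.000315). In shXBP1 cells the fall was larger. HSPE1 went from 768, 714 and 715 CPM to 238, 242 and 226 CPM, a log2 fold change of −1.64 (SE 0.0449) that left 0.320 of the vehicle level, and the difference in response from WT cells was −0.46 (SE 0.0731, edgeR adjusted p = 0.00108). The call on HSPE1 held in all 12 fits that left out 1 library in each of these comparisons.
HSPE1 was the only member whose difference in response was called in shXBP1, where 1.67% of all genes had a lower response and 0.364% a higher one. YME1L1 rose there from 66.3, 71.2 and 75.5 CPM to 113, 112 and 111 CPM. Its difference in response of −0.25 (SE 0.0794) did not pass the test (edgeR adjusted p = 0.133). LONP1 reached 212, 187 and 189 CPM from 78.8, 92.9 and 81.8 CPM, and DNAJA3 reached 128, 121 and 122 CPM from 77.1, 72.0 and 80.3 CPM.
Among the smaller responses, TRAP1 was called in koCARM1 (log2 fold change 0.25, SE 0.0437) and not in shXBP1 (0.12, SE 0.0561, edgeR adjusted p = 0.104). CLPP was called in shXBP1 (0.24, SE 0.0579) and not in koCARM1 (0.10, SE 0.052), and neither gene's difference in response from WT was called. AFG3L2 passed in koCARM1 by a small margin (0.11, SE 0.0432, edgeR adjusted p = 0.0409), and that call was lost with DESeq2 (adjusted p = 0.128). CLPX passed in shXBP1 (0.205, SE 0.0717, edgeR adjusted p = 0.0345). Its call was lost with DESeq2 (adjusted p = 0.0561) and in 4 of the 6 fits that each left out 1 library. HSPD1 did not pass in koCARM1 (−0.03, SE 0.0307) or in shXBP1 (0.04, SE 0.0328).

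**Figure D2:**
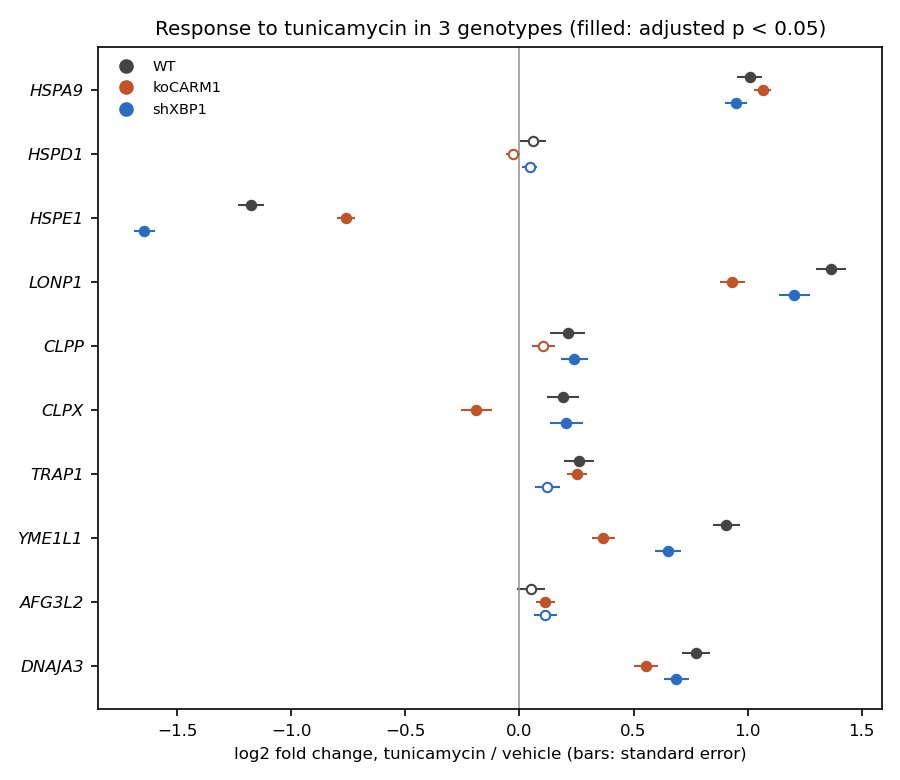
Log2 fold changes of the 10 genes with tunicamycin against vehicle in WT, koCARM1 and shXBP1 cells (horizontal axis, bars = standard error, filled points = called at an adjusted p under 0.05). HSPE1 lies at −1.64 in shXBP1, −1.18 in WT and −0.76 in koCARM1, and LONP1 and YME1L1 lie lowest in koCARM1.

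Since HSPD1 and HSPE1 are counted in the same libraries, their ratio needs no scaling between libraries. HSP10 and HSP60 work as rings of equal subunit number, but the ratio of 3′ counts is no measure of protein. With vehicle there were 0.586 to 0.752 HSPE1 counts per HSPD1 count in WT, 0.604 to 0.690 in koCARM1 and 0.625 to 0.669 in shXBP1 libraries, so the 3 genotypes overlapped. With tunicamycin they separated, at 0.257 to 0.278 in WT, 0.383 to 0.398 in koCARM1 and 0.191 to 0.207 in shXBP1. These ranges do not overlap with each other or with any vehicle library. The ratio is given as a description with no test of its own.
Reads of processed copies could bear on these genes. The table lists 18 HSPD1 pseudogenes and 27 HSPE1 copies, readthrough included, whose summed counts reached at most 1.52% and 1.05% of the gene's reads in a library, and adding them changed no call on either gene. HSPD1 and HSPE1 overlap on opposite strands in the annotation, and the sources used here do not state whether counting used the strand. The HSPE1 transcript is short, at 557 bases in its canonical form, and 0.916% of 13434 coding genes with a length are shorter. Genes under 800 bases had a median log2 fold change of −0.08 with tunicamycin in WT, −0.02 in koCARM1 and −0.14 in shXBP1, and 30.5%, 29.8% and 37.3% of them were called lower, beside 16.8%, 19.0% and 10.5% called higher. The part of length in the HSPE1 result was not tested beyond these values.
The ratio of CLPX to CLPP followed another pattern. It was 0.547 to 0.702 with vehicle and 0.571 to 0.677 with tunicamycin in WT, and 0.624 to 0.655 and 0.596 to 0.665 in shXBP1. In koCARM1 it was lower, at 0.410 to 0.443 with vehicle and 0.332 to 0.372 with tunicamycin.

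**Figure D3:**
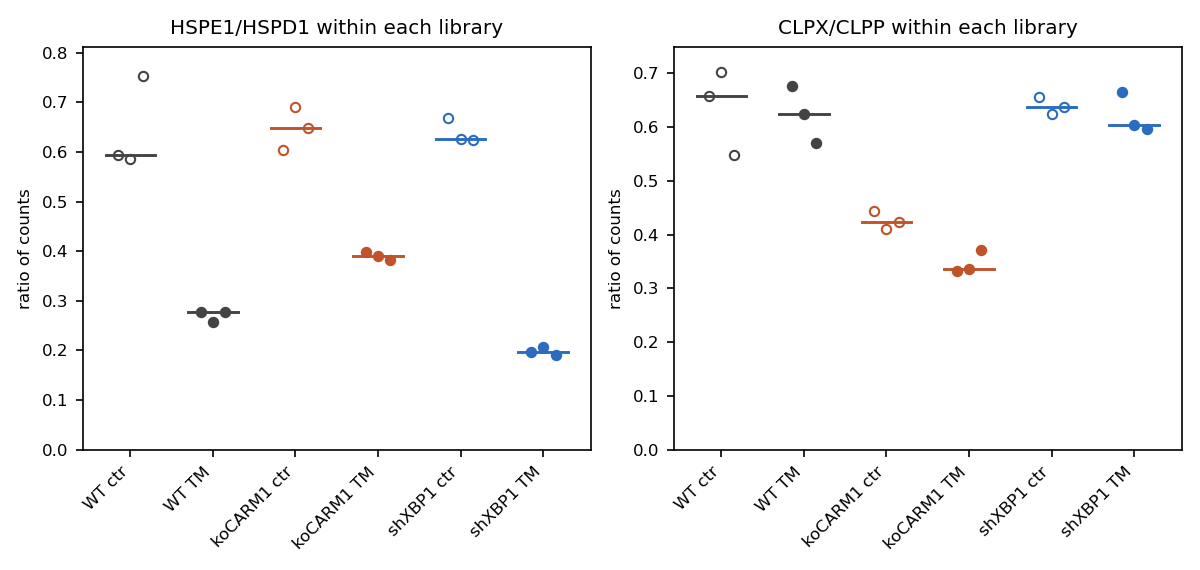
Ratio of counts within each library for HSPE1 to HSPD1 (left) and CLPX to CLPP (right), on linear axes from 0, with 3 libraries per group (open vehicle, filled tunicamycin, bar = median). The HSPE1 to HSPD1 medians fall with tunicamycin from 0.594 to 0.278 in WT, from 0.648 to 0.390 in koCARM1 and from 0.626 to 0.197 in shXBP1.

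Against WT under vehicle, koCARM1 cells had less HSPD1, HSPE1, HSPA9, AFG3L2 and DNAJA3 mRNA and more CLPP and YME1L1. In all 6 members were lower, where 36.9% of all genes were, and 2 were higher, where 37.5% of all genes were. With tunicamycin 8 were lower, where 36.8% of all genes were, and 1 was higher, where 38.4% of all genes were. The median log2 fold change of the members was −0.19 with vehicle and −0.35 with tunicamycin, beside −0.03 and −0.02 over all genes. The marker lists given above moved with the same contrast, and their part in the members' differences was not tested.
HSPD1 stood at 706, 686 and 701 CPM with vehicle and at 667, 660.4 and 672 CPM with tunicamycin in koCARM1. Each of these libraries was below the lowest WT library, and the log2 fold changes from WT were −0.78 (SE 0.0521, edgeR adjusted p = 1.73e-09) and −0.84 (SE 0.0359, edgeR adjusted p = 1.36e-11). HSPE1 was −0.76 (SE 0.0511) from WT with vehicle, beside its partner, and −0.32 (SE 0.0449) with tunicamycin. HSPA9 differed by −0.69 (SE 0.0489) and −0.61 (SE 0.0421). Genes of HSPA9's partners did not move as one: GRPEL1 was called lower with both treatments (−0.20 and −0.16), DNLZ was called higher with both (1.02 and 1.69), and GRPEL2 was called higher with vehicle (0.33) and was at −0.09 with tunicamycin.
Among the proteases, CLPP went the other way from AFG3L2. CLPP was at 108.7 ± 6.62 CPM in koCARM1 with vehicle and at 114.1 ± 6.91 CPM with tunicamycin (SD, n = 3 each), with log2 fold changes from WT of 0.54 (SE 0.0693) and 0.46 (SE 0.0645). AFG3L2 was at 107.5 ± 2.96 and 113.6 ± 1.72 CPM, with log2 fold changes of −0.40 (SE 0.0507) and −0.31 (SE 0.0546). YME1L1 was above WT with vehicle (0.25, SE 0.0616) and below it with tunicamycin (−0.26, SE 0.0518). LONP1 was lower with tunicamycin (−0.57, SE 0.0599), and its call with vehicle (−0.16, SE 0.0677, edgeR adjusted p = 0.0411) was lost with DESeq2 (adjusted p = 0.167). CLPX was called with tunicamycin (−0.38, SE 0.0688) and not with vehicle (−0.03, SE 0.0675). DNAJA3 was called lower with both treatments (−0.22, SE 0.0576, and −0.42, SE 0.0559). TRAP1 was not called with either (0.10, SE 0.0566, and 0.12, SE 0.0558), though DESeq2 called it higher with both (adjusted p = 0.0481 and 0.037).
A gene can differ with its surroundings on the chromosome, so each member was set beside the genes tested within 5 Mb on either side. Under vehicle the 49 genes around HSPD1 and HSPE1 had a median log2 fold change of −0.15 (quartiles −0.68 and 0.52), and the 121 genes around HSPA9 had −0.19 (quartiles −0.71 and 0.67). HSPD1 and HSPE1 lay below the lower quartile of their neighbours with vehicle, and HSPA9 lay just above that of its own. The 47 genes around AFG3L2 had a median of 0.51 (quartiles 0.07 and 1.08), so AFG3L2 at −0.40 lay below the lower quartile of its neighbours. The 242 genes around CLPP had a median of 0.09 (quartiles −0.45 and 0.74), a range that holds the CLPP value.

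**Figure D4:**
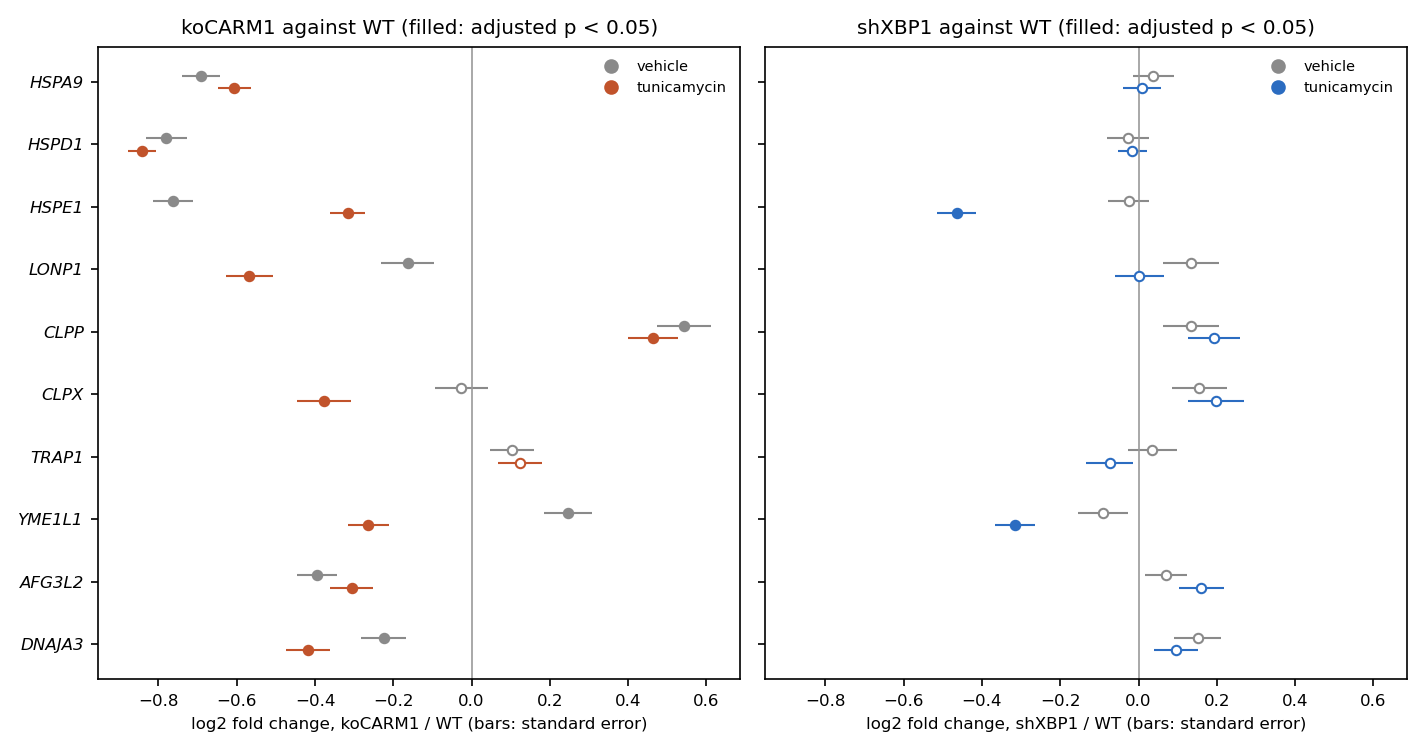
Log2 fold changes of the 10 genes in koCARM1 (left) and shXBP1 (right) against WT, under vehicle (grey) and tunicamycin (coloured), with bars = standard error and filled points = called at an adjusted p under 0.05. In koCARM1 most points lie below 0, while CLPP and TRAP1 lie above it with either treatment and YME1L1 does under vehicle. In shXBP1 HSPE1 (−0.46) and YME1L1 (−0.32) under tunicamycin are the filled points.

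XBP1 knockdown left few differences among the members. Under vehicle 0 of the 10 were called in edgeR, where 2.07% of all genes were higher and 3.03% were lower. At an unadjusted p under 0.05 edgeR had 2 members, and DESeq2 called 0. The log2 fold changes from WT ran from −0.09 (YME1L1, SE 0.0648) to 0.16 (CLPX, SE 0.0704), with a member median of 0.054 beside −0.003 over all genes. With tunicamycin 2 were called lower, where 8.55% of all genes were, and 0 higher, where 6.99% of all genes were.
Those 2 were HSPE1 and YME1L1. HSPE1 with tunicamycin was 236 ± 8.22 CPM in shXBP1 and 326 ± 15.6 CPM in WT (SD, n = 3 each), a difference on the log2 scale of −0.46 (SE 0.0498, edgeR adjusted p = 1.08e-05). YME1L1 was 112 ± 1.34 and 139.8 ± 3.83 CPM (SD, n = 3 each), a difference on the log2 scale of −0.32 (SE 0.0512, edgeR adjusted p = 0.000529). For both genes the 3 shXBP1 libraries lay below the 3 WT libraries with tunicamycin and overlapped them with vehicle. CLPP, CLPX and AFG3L2 were at 0.19, 0.20 and 0.16 with tunicamycin and did not pass in edgeR (adjusted p = 0.0609, 0.0757 and 0.0736). With no filter on low counts CLPP and AFG3L2 were called, and with all 18 libraries in one fit CLPX and AFG3L2 were, which brings the count to 4 in either case.

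The chaperones of other compartments show where the mitochondrial set stood. In WT cells all 4 ER counterparts rose, where 22.0% of all genes were called higher. HSPA5 (BiP, the HSP70 of the ER) rose by 3.08 on the log2 scale and HYOU1 (its nucleotide exchange factor) by 2.87. DNAJB11 (a J-domain co-chaperone) rose by 2.42 and HSP90B1 (the ER HSP90) by 1.63. Of 6 cytosolic counterparts 4 fell, where 19.9% of all genes were called lower. These were HSPA8 (the constitutive HSP70) at −2.13, DNAJA1 (its J-domain partner) at −0.92, HSP90AA1 at −0.50 and HSP90AB1 at −0.28. CCT2, a subunit of the cytosolic chaperonin, did not pass (0.08). HSPA1A, the stress-inducible HSP70, was at 0 to 0.938 CPM in WT libraries, too low for a fold to be read, and at 337 to 379 CPM with vehicle and 61.9 to 64.4 CPM with tunicamycin in koCARM1. Counts for HSPA9 per HSPA5 count went from 0.199 to 0.213 with vehicle to 0.0482 to 0.0504 with tunicamycin in WT, so the HSP70 mRNA of the ER outgrew that of mitochondria. The ER counterparts rose in koCARM1 and shXBP1 as well, all 4 in each, where 20.6% and 19.2% of all genes were called higher. Of the cytosolic ones 5 and 4 fell, where 18.8% and 19.0% of all genes were called lower.

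**Figure D5:**
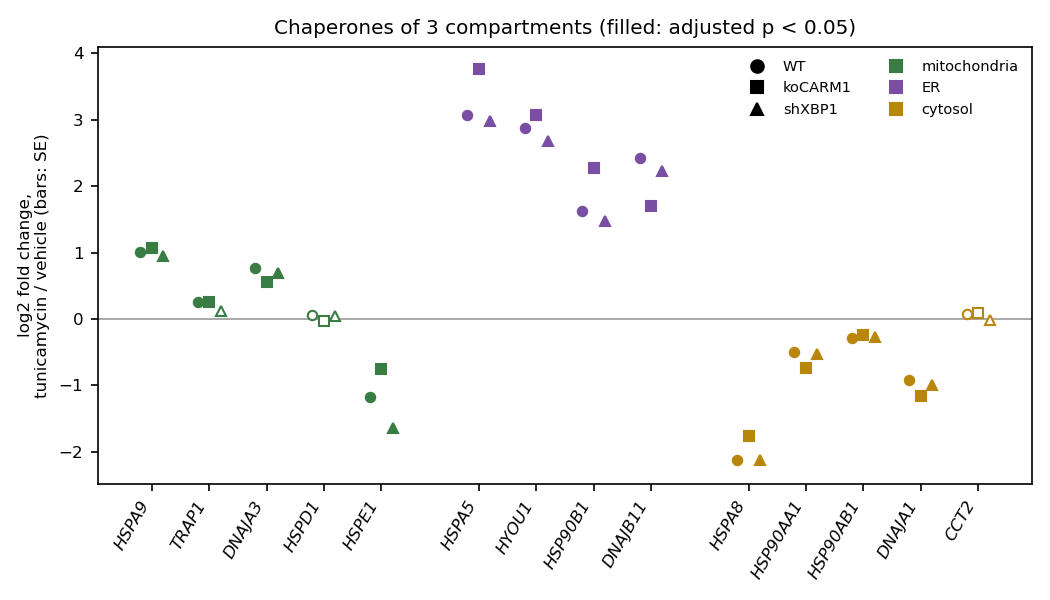
Log2 fold changes with tunicamycin for chaperones of mitochondria, ER and cytosol in WT (circles), koCARM1 (squares) and shXBP1 (triangles), with bars = standard error and filled symbols = called at an adjusted p under 0.05. The ER genes lie between 1.48 and 3.77, HSPA8 lies between −2.13 and −1.76, and the mitochondrial chaperones run from −1.64 (HSPE1) to 1.07 (HSPA9).

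Other genes of mitochondrial protein import and quality control gave mixed counts in WT cells with tunicamycin, against the 22.0% and 19.9% of all genes called higher and lower. Of 9 co-chaperones and related AAA proteins 5 rose, 1 fell and 3 did not pass (median 0.31). GRPEL2, a nucleotide exchange factor of HSPA9, rose by 1.19, DNLZ, which keeps HSPA9 soluble, fell by 0.395 on the log2 scale, and GRPEL1, the other exchange factor, did not pass (−0.02). Of 8 other proteases 4 rose, 1 fell and 3 did not pass (median 0.12). OMA1, the stress-activated inner membrane protease, rose by 0.64, and SPG7, which shares the m-AAA ring with AFG3L2, fell by 0.22 on the log2 scale. Of 5 peptidases that cut targeting sequences 2 rose and 1 fell (median 0.25), led by PMPCB, a subunit of the matrix processing peptidase, at 0.41 and by MIPEP at −0.30. Of 3 inner membrane scaffold genes 1 fell, PHB at −0.28 (median −0.09).
Members of both membrane translocases moved in either direction. Of 7 outer membrane genes 4 fell and 2 rose (median −0.37). TOMM6, a small subunit of the entry pore, fell most at −1.77, and TOMM70A, an import receptor, rose most at 0.41. Of the 4 that fell, TOMM6 (565 bases), TOMM5 (706 bases, −0.66) and TOMM7 (434 bases, −0.37) have transcripts under 800 bases, the length class in which 30.5% of genes were called lower and 16.8% higher in WT, and TOMM22 (−0.47) has 2031 bases. The part of length in this count was not tested. In koCARM1 TOMM6 was at −0.26, a difference in response of 1.49, and in shXBP1 at −1.71. Of 6 inner membrane genes tested 4 rose and 1 fell (median 0.26), with TIMM44, the anchor of HSPA9 at the import channel, at 0.92 and TIMM21 at −0.27. TIMM23 and the transcripts of mitochondrial DNA were not analysed here. Of 12 citrate cycle enzymes 4 rose and 2 fell (median 0.07), led by IDH3G at 0.61 and SDHA at −0.21.
Of 7 transcription factors linked to stress or to mitochondria 5 rose and 2 fell in WT cells. ATF4 rose by 1.81, DDIT3 (CHOP) by 4.61 and ATF5, a factor of the mitochondrial unfolded protein response, by 2.15. In koCARM1 ATF4 rose by 1.31 and DDIT3 by 5.02. ATF5 was at 56.4, 47.3 and 58.4 CPM with vehicle and at 52.5, 46.7 and 42.1 CPM with tunicamycin there (log2 fold change −0.16, not called), while WT libraries went from 90.5, 97.3 and 93.2 CPM to 359, 463 and 419 CPM. The difference in response was −2.33 (edgeR, called).
With tunicamycin in koCARM1, where 20.6% of all genes were called higher and 18.8% lower, the co-chaperones had 4 higher and 0 lower, the other proteases 2 and 2, the presequence peptidases 1 and 0, the scaffolds 1 and 0, the outer translocase 2 and 3, the inner translocase 3 and 1, the citrate cycle 1 and 4, and the transcription factors 4 and 0. In shXBP1, where the shares over all genes were 19.2% and 19.0%, these counts, in the same order, were 4 and 1, 2 and 1, 1 and 1, 1 and 1, 1 and 4, 4 and 1, 2 and 1, and 4 and 2. In lists this short, several of these counts lie near the shares over all genes, and they are given as a description.

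The members did not share a single pattern over the 18 libraries. Likeness was measured as the root mean square difference between log2 CPM values, each gene centred on its own mean, and 9523 genes were ranked whose log2 CPM averaged 3 or more. For LONP1 the nearest genes were MEX3C (0.111), OGT (0.114) and PLRG1 (0.121), and for HSPA9 they were IARS1 (0.096), SNRPA (0.112) and ANKRD11 (0.119). LONP1 ranked 46th among the genes nearest to HSPA9, with a difference of 0.205, and no other pair of members stood closer in rank except HSPA9 seen from LONP1, at 32. HSPD1 lay nearest to CHD1 (0.056) and HSPE1 to SALL2 (0.132), and AFG3L2 to ANP32B (0.055). DNAJA3 lay nearest to DNAJC1 (0.089), YME1L1 to ACADVL (0.095), CLPX to ETFA (0.087), CLPP to PEX26 (0.081) and TRAP1 to ECHDC1 (0.056).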

How the data were processed

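mRNA was measured in A1847 cells of 6 groups (3 genotypes, vehicle or tunicamycin) with 3 libraries each, by 3′ mRNA sequencing (Lexogen kit, single reads of 75 nt). Alignment to hg19 was done by the authors with bowtie2, and the deposited values are expected counts from RSEM for each Ensembl gene (version 1.2.3 in the submitters' processing notes, another version in the paper), held as whole numbers with no normalization. The annotation release, any filter and strand use in counting are not given in the sources used here. Library totals were 9367462 to 13917212, and 0 columns were left unmapped. Symbols were found for 55501 genes by their Ensembl identifiers, and positions were taken from the GENCODE annotation on GRCh37. Of 81 companion genes 67 were matched, with PHB and TOMM70A found as RefSeq synonyms.

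The members, companion lists and markers were chosen with earlier results of these data known. The lists were written from general knowledge: ER and cytosolic counterparts, co-chaperones, other proteases, scaffolds, presequence peptidases, translocases of both membranes, citrate cycle enzymes, stress transcription factors, and markers of epithelial, mesenchymal, leukocyte and endothelial cells. Named genes were all members, CARM1 and XBP1, the ER and cytosolic counterparts, ATF4, ATF5, DDIT3, SPG7 and GRPEL1, the called genes of largest rise and fall in each list, and the 3 genes nearest in pattern to a member. A few more values in the text were added after they were seen.

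In R 4.3.3, edgeR 4.0.16 was run with filterByExpr (minimum count 10), TMM normalization and quasi-likelihood F tests on the compared groups alone, with Benjamini-Hochberg adjustment over 17317 genes at 0.05. Differences in response were the interaction terms of the 4 groups concerned. The standard error was taken as |log2 fold change| over √F, and log2 CPM used a prior count of 2. Tried as alternatives were a replicate block, a single fit of all 18 libraries, DESeq2 1.42.0 and its size factors alone, an FDR of 1%, a minimum of 10 counts in each library or no filter, counts of copies added to the member, and leaving out each library. On simulated data with 17317 genes, the comparison of tunicamycin with vehicle in WT recovered 73% of genes changed by 0.5 and 97% of those changed by 1 on the log2 scale, and 11.46% of its calls were false, above the nominal 5%. For the shXBP1 difference in response these were 44%, 86% and 8.45%. Each simulation changed 100 genes by 0.5 and 100 by 1, drawn only from genes with higher counts. In the real comparison of tunicamycin with vehicle in WT, 22.0% of all genes were called higher and 19.9% lower. The simulated shares therefore need not hold for the real comparison or for genes with few counts. Between replicates, chi-square per degree of freedom was 1.84 to 7.46 over 18 pairs, so precision was taken from the replicates and not from counting error.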

Additional observations from a re-analysis of the deposited data

Results flagged for a closer look

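Of the 10 genes, 5 had a response to tunicamycin that differed between koCARM1 and WT cells in the test of the difference itself (edgeR's interaction term, log2 scale, koCARM1 minus WT). YME1L1 differed by −0.557, LONP1 by −0.452, CLPX by −0.398 and DNAJA3 by −0.239, and HSPE1 differed by 0.397. The DNAJA3 call was lost with DESeq2 (adjusted p = 0.0659) and in 9 of the 12 fits that each left out 1 library. Over all genes tested, 12.4% had a lower response and 10.5% a higher one. For shXBP1 minus WT, HSPE1 differed by −0.462 and was the only member called, where 1.67% of all genes had a lower response and 0.364% a higher one. Both sets use the same WT libraries. The koCARM1 libraries also differ from WT in 6 of 6 epithelial and ovarian cancer markers tested under vehicle and in 5 of 6 under tunicamycin, so the genotype and other differences between these cells cannot be told apart.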

How the results depend on the processing

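Over the 9 comparisons and 10 genes, 1380 values were recomputed under the alternatives. Of these, 1298 kept their side of the threshold, 64 lost a call, 18 gained one and 0 reversed direction where either fit called the gene. Values that changed sign without a call in either fit are counted among the 1298. An example is CLPX in koCARM1 against WT under vehicle, which ran from −0.048 to 0.016 with 1 library left out. The count of members called with tunicamycin in WT cells was 8, and 5 to 7 without 1 library (5 without replicate 3 of the tunicamycin group). For shXBP1 against WT under tunicamycin it was 2, and 4 with no filter or with all 18 libraries in one fit. The median of the members for tunicamycin in koCARM1 (0.183) was 0.147 with all 18 libraries in one fit (all genes 0 and −0.028). For koCARM1 against WT under vehicle (−0.194) it was −0.154 with DESeq2's size factors and with DESeq2, −0.139 with at least 10 counts in every library and −0.149 with all libraries in one fit, while the median of all genes went from −0.03 to 0.009, 0.01, −0.014 and 0.015. For koCARM1 against WT under tunicamycin (−0.348) it was −0.295 with at least 10 counts in every library (all genes −0.016 and 0). For the koCARM1 difference in response (−0.117) it was −0.047 with no filter and −0.056 with at least 10 counts, while the median of all genes went from −0.014 to 0.015 and 0.037 (up to 0.066 with 1 library left out), and for the shXBP1 difference (−0.065) it was −0.031 with no filter (all genes 0 in both). With no filter and with at least 10 counts, the median of all genes is taken over 30046 and 12039 genes in place of 17317. The cause of the koCARM1 shifts was not tested. With 1 library left out the medians ran from 0.195 to 0.291 for tunicamycin in WT, 0.189 to 0.274 in shXBP1, −0.223 to −0.155 for koCARM1 against WT under vehicle and −0.365 to −0.318 under tunicamycin, 0.047 to 0.086 for shXBP1 against WT under vehicle and −0.028 to 0.041 under tunicamycin, −0.141 to −0.03 for the koCARM1 difference and −0.095 to −0.017 for the shXBP1 difference.

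Replicate numbers did not pair the samples (correlations of same-numbered deviations −0.048 to 0.039). A replicate block took the call of AFG3L2 with tunicamycin in koCARM1 (adjusted p = 0.0611), added CLPP for shXBP1 against WT under tunicamycin (adjusted p = 0.0463) and changed no other member's call. In the simulation, with the settings given above, 73% of genes changed by 0.5 on the log2 scale were recovered for tunicamycin in WT. Depth was not varied.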
